A study of Mus musculus with 3 samples.

Results

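The LIF and gp130 cytokine axis was followed through 9 genes, taken by symbol from the 32287 features counted in each library. All 9 symbols were found. The rule used no measured value, but the genes were chosen with earlier results of these data known. The ligands were Lif, Cntf and Clcf1; the receptor subunits were Il6st, Lifr, Osmr and Cntfr; the endothelin pair was Edn2 and its receptor Ednrb. The genes were read in the 10926 cells of the joint count table of the series (called kept cells here) and, for other cell types, in all 30990 cells that passed the filters on features, unique molecular identifiers (UMIs) and mitochondrial share.

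Each of the 3 groups was 1 droplet library made from 2 to 4 pooled retinas. All mice carried Glast-CreERT2 and R26-CAG-LSL-Tdt, were given tamoxifen (75 mg/kg) from postnatal day 20 so that Glast-expressing Müller glia (MG) became tdTomato+, received adeno-associated virus (AAV) at P28 and were harvested at P51. The control retinas received AAV7m8-GFAP-GFP-LacZsh, in which the GFAP promoter drives GFP and, by the labels, a short hairpin against LacZ, where the study's methods name a hairpin with no target. The CCA retinas received the cell cycle activator AAV7m8-GFAP-cyclin D1-p27sh with the GFP virus, mixed 9:1, and the CCANT retinas additionally received NMDA, which injures inner retinal neurons, at P35 and the histone deacetylase inhibitor Trichostatin A (TSA) at P37. Only retinas with good GFP expression were used, tdTomato+ cells were sorted, and the number of mice per pool is not given in the sources used here. With 1 library per group no p-value can be had, and every interval below covers counting error only.

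The kept cells numbered 3758 in control, 3890 in CCA and 3278 in CCANT, with median UMIs per cell of 20710.5 to 24235.5. Their defining MG genes (10 of 10 markers, among them Glul and Rlbp1) summed to 24732 to 26221 UMIs per 1000000 UMIs (CPM). The sexes of the libraries differed: by their UMIs of Xist and of Y-linked genes, 3505 of the control cells were classed as Y-linked and 0 as Xist, 3859 of the CCA cells as Xist and 0 as Y-linked, and the CCANT library held 1183 and 1718 of these kinds. Sex and treatment therefore cannot be told apart between control and CCA. The summed level of 10 rod genes in the kept cells was 326 CPM in control, 912 CPM in CCA and 1620 CPM in CCANT, and 28, 200 and 402 kept cells lay in clusters that carried both MG and rod genes. Libraries shared 2 to 8 kept barcodes per pair.

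Cytokines of this family bind receptors that share the subunit gp130, which Il6st encodes, and signal through JAK kinases to the transcription factor STAT3, with SOCS3 as the feedback inhibitor. LIF recruits gp130 together with the LIF receptor, CNTF and CLCF1 do so through the CNTF receptor alpha subunit, and oncostatin M recruits gp130 with the subunit that Osmr encodes. In the injured retina, LIF is known as a cytokine that MG release and that promotes photoreceptor survival, Edn2 as an endothelin that stressed photoreceptors make, and Gfap, an intermediate filament gene, as the standard mark of reactive MG.

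In the GRCm38 annotation, the build (mm10) on which the counts were made, Lif lies at chr11:4257557-4272514 on the plus strand and Il6st at chr13:112464070-112510086 on the plus strand. Osmr (chr15:6813577-6874969, minus strand) and Lifr (chr15:7090614-7197489, plus strand) are neighbours on chromosome 15. Cntfr lies at chr4:41657498-41697089 on the minus strand, Edn2 at chr4:120161206-120167360 on the plus strand and Ednrb at chr14:103814625-103844402 on the minus strand. Clcf1 lies at chr19:4214238-4223490 on the plus strand. Cntf (chr19:12763660-12765632, minus strand) lies wholly inside Zfp91 on the same strand, so the division of reads between these genes is uncertain; Zfp91 itself was at 134 CPM in control, 133 CPM in CCA and 127 CPM in CCANT.

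The RefSeq promoter windows (GRCm38.p6, 250 bases before to 50 after a start site, 300 bases in all) were found for 8 of the 9 genes, and Clcf1 had no entry. They were searched for TTCNNNGAA, the palindromic letters that STAT dimers bind, and for TGACTCA on either strand, the letters that AP-1 factors bind. TTCNNNGAA was in 8.30% of all 32851 promoter windows and in none of the windows of the 8 genes, and TGACTCA was in 5.20% of all windows and in those of Lif and Cntf. The windows of Lif and Cntf are shown because they hold TGACTCA, and those of Gfap and Socs3, the mark of reactive MG and the feedback inhibitor, because they hold TTCNNNGAA. Capitals mark the matched letters, and each sequence is given 5′ to 3′ on the strand of its gene.
Lif, chr11:4257318-4257617, plus strand: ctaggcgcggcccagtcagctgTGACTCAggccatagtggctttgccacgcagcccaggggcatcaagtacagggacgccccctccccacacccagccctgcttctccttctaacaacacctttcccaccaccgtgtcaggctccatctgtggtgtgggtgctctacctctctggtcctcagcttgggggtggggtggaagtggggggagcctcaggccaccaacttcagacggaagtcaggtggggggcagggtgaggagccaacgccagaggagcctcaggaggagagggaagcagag
Cntf, chr19:12765583-12765882, minus strand: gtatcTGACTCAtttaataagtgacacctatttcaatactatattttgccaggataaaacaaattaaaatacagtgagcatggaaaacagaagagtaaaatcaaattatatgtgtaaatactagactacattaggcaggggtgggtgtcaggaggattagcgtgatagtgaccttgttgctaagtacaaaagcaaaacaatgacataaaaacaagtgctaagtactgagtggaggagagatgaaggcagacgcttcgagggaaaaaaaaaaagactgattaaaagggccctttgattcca
Gfap, chr11:102897151-102897450, minus strand: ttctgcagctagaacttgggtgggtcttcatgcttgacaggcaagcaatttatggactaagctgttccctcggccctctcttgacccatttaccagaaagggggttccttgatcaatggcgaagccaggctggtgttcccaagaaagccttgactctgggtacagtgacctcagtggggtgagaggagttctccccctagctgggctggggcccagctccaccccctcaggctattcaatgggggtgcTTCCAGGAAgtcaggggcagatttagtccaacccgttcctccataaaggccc
Socs3, chr11:117969317-117969616, minus strand: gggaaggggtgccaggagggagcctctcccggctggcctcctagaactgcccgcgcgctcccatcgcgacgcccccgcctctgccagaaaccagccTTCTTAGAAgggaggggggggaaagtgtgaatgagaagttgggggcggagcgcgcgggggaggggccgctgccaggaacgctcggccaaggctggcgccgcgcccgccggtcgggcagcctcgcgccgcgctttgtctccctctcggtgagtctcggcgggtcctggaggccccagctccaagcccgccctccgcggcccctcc
A match of letters is a description only, and its absence from a window of this length says nothing about a factor.

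Between the libraries, Lif was the member that differed most in CCA among those above the minimum level, and Lif, Clcf1 and Ednrb were each over 1.5-fold higher in CCANT than in control. The shared signalling subunit Il6st and the receptors Lifr and Osmr differed from control by at most 0.13 on the log2 scale in both treated libraries. Cntfr was lower in CCANT, by less than 1.5-fold. A gene was counted as different when its ratio of summed UMIs passed 1.5-fold and the exact 95% interval of the ratio did not hold 1, among the 11788 genes whose mean over the libraries reached 5 CPM and whose UMIs reached 50; 8 of the 9 members passed this minimum, and Edn2 did not. In CCA over control, 1 of 8 (Lif) was higher and 0 lower, where 5.78% of all genes tested were higher and 1.31% lower. In CCANT over control, 3 of 8 were higher and 0 lower, against 5.84% and 2.99% of all genes. In CCANT over CCA, 0 of 8 passed in either direction, against 1.43% of all genes higher and 2.22% lower. The median log2 ratio of the 8 members was 0.01 in CCA over control, beside 0.05 for all genes tested, and 0.28 in CCANT over control, beside 0.02.

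Lif was at 4.30 CPM in control (410 UMIs, interval 3.89 to 4.73), 8.30 CPM in CCA (691 UMIs, 7.69 to 8.94) and 6.72 CPM in CCANT (476 UMIs, 6.13 to 7.35). No interval overlapped another, and the order was control, CCANT, CCA. The log2 ratio was 0.95 in CCA over control (interval 0.77 to 1.13), 0.65 in CCANT over control (0.45 to 0.84) and -0.30 in CCANT over CCA (-0.48 to -0.13). After thinning each cell to 4000 UMIs, a Lif UMI was seen in 1.46% of control cells (Clopper-Pearson interval 1.10 to 1.90), 2.39% of CCA cells (1.94 to 2.92) and 1.92% of CCANT cells (1.48 to 2.45), so that by shares the CCANT library could not be told from either of the others. Without thinning the shares were 7.26%, 9.33% and 8.48%. In rod-like cells, which should lack Lif, the thinned share was 0% of 777 control cells (which allows a share of up to 0.386%), 0.0818% of 1222 CCA cells and 0.328% of 1221 CCANT cells.

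Lif UMIs were concentrated in few cells. The 1% of kept cells with most Lif UMIs (38, 39 and 33 cells) held 42.4% of all Lif UMIs in control, 48.6% in CCA and 46.2% in CCANT. For Cntf the same share was 9.71%, 9.15% and 7.37%, and for Clcf1 13.4%, 18.4% and 15.1%. This share also rises where a gene has few UMIs. For Edn2, with at most 2 UMIs in any kept cell, it was 90.7%, 40.9% and 41.8%. Of Lif, 11, 22 and 11 cells held 5 or more UMIs. Of Clcf1, which had more UMIs in each library, 4, 8 and 8 cells did. In CCANT a single cell of a mixed MG and rod cluster held 52 Lif UMIs, 10.9% of the library's total, and the CCA cell with most (31) also lay in a mixed cluster. Without the cell with most Lif UMIs in each library, the log2 ratio was 0.98 in CCA over control (interval 0.80 to 1.17) and 0.58 in CCANT over control (0.37 to 0.78), the latter just under 1.5-fold. In MG clusters alone, without the mixed cells, Lif was at 4.29, 8.09 and 5.85 CPM, and CCANT over control was 0.45 on the log2 scale (0.24 to 0.66), also under 1.5-fold. The Lif difference in CCA held in both readings, and that in CCANT passed 1.5-fold only with these cells included. In the CCANT cells with Y-linked UMIs alone Lif was at 5.62 CPM, and its log2 ratio over control was 0.39 (0.11 to 0.66), also under 1.5-fold.

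Cntf, the ciliary neurotrophic factor, was at 45.9 CPM in control, 41.6 CPM in CCA and 61.9 CPM in CCANT, from 3465 to 4386 UMIs. It was lower in CCA than in control (log2 ratio -0.14, interval -0.21 to -0.08) and higher in CCANT than in both, by 0.43 (0.37 to 0.49) over control and by 0.57 (0.51 to 0.64) over CCA. All 3 differences exceeded counting error, and none passed 1.5-fold. Thinned shares followed the same order, with a Cntf UMI in 13.7% of CCA, 15.6% of control and 20.1% of CCANT cells. Cells with Xist in the CCANT library were at 67.9 CPM of Cntf and cells with Y-linked UMIs at 54.1 CPM, a log2 difference of 0.33 (0.23 to 0.42) within 1 library. Against the CCA library, whose cells carried Xist, the CCANT cells with Xist were higher by 0.71 (0.63 to 0.78), past 1.5-fold, and against control, whose cells carried Y-linked UMIs, the CCANT cells with such UMIs were higher by 0.24 (0.15 to 0.32).

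Clcf1, a cardiotrophin-like cytokine that signals through the CNTF receptor, was at 9.02 CPM in control, 10.1 CPM in CCA and 14.2 CPM in CCANT, from 839 to 1003 UMIs. Its CCANT level stood apart from the others, while control and CCA were near each other. The log2 ratio was 0.16 in CCA over control (0.02 to 0.30) and 0.65 in CCANT over control (0.52 to 0.78). It was also 0.61 (0.43 to 0.79) in the CCANT cells with Y-linked UMIs over control.

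Edn2 was near the limit of detection in kept cells, at 0.450 CPM in control (43 UMIs), 1.38 CPM in CCA (115 UMIs) and 1.28 CPM in CCANT (91 UMIs). The log2 ratio was 1.62 in CCA over control (1.10 to 2.16) and 1.51 in CCANT over control (0.97 to 2.07), but Edn2 had under 5 CPM and was not counted. The intervals of CCA and CCANT overlapped. With the cells chosen by their Edn2 UMI, kept cells with an Edn2 UMI had 686, 3216 and 6874 CPM of the 10 rod genes, against 321, 846 and 1463 CPM in kept cells without one. Of the kept cells with an Edn2 UMI, 7.14% in control, 26.2% in CCA and 61.6% in CCANT lay in mixed or rod clusters, against 0.915%, 5.21% and 11.4% of those without one. In MG clusters alone Edn2 was at 0.423, 1.03 and 0.538 CPM, and CCANT over control fell to 0.35 (-0.36 to 1.05) while CCA over control remained 1.28 (0.72 to 1.87). As a percent of its level in the rod-like cells of the same library, Edn2 in MG was 1.5%, 2.06% and 1.40%, where the 10 rod genes ranged from 0.634% to 1.46% in control, 0.847% to 2.32% in CCA and 0.945% to 2.48% in CCANT. In CCA and CCANT the Edn2 of MG was within the range of the rod genes, and in control just above it; the part of rod RNA in its differences between libraries was not tested.

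**Figure D1:**
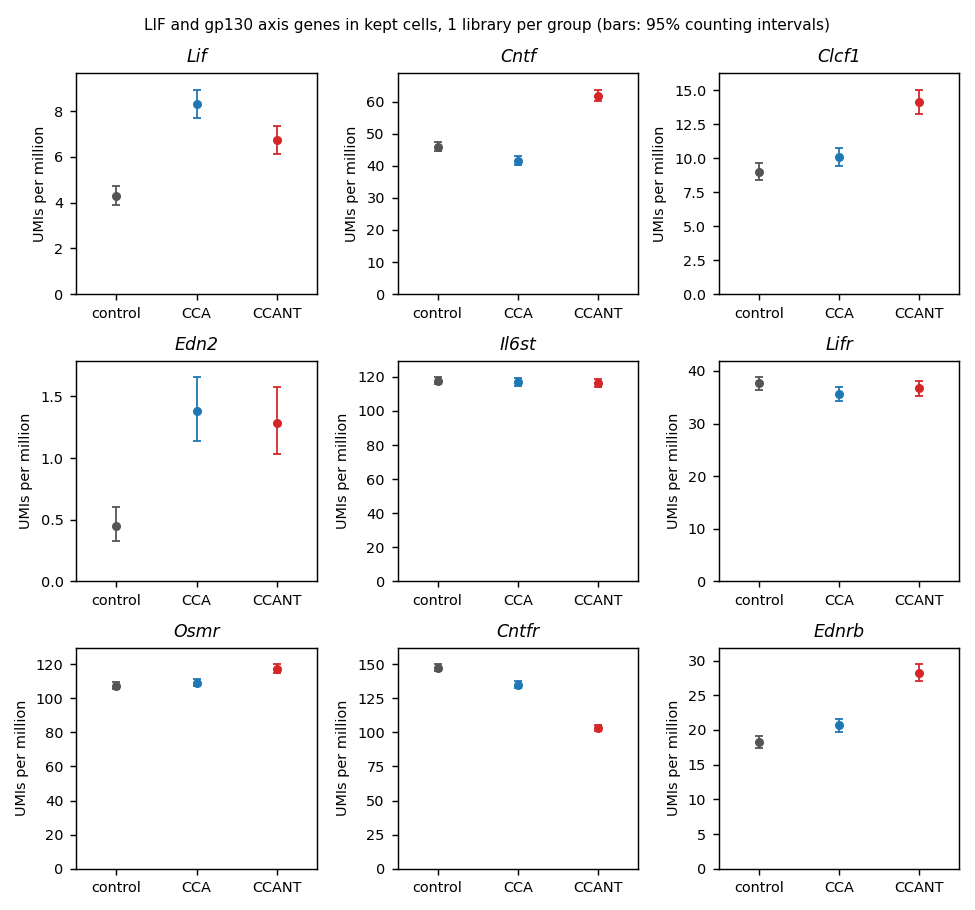
Level of each of the 9 genes in the kept cells (y axis, CPM, from 0) in the 3 libraries (x axis); points are 1 library each and bars are exact 95% counting intervals. Lif was 4.30, 8.30 and 6.72 CPM, Cntfr fell from 147 to 103 CPM in CCANT, and Il6st was at 116 to 118 CPM in all 3.

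Among the receptors, Il6st was at 118 CPM in control, 117 CPM in CCA and 116 CPM in CCANT, and its log2 ratios over control were -0.01 (-0.05 to 0.03) and -0.02 (-0.06 to 0.02). Thinned shares of cells with an Il6st UMI were 36.6%, 36.5% and 36.4%. Lifr, the partner subunit, was at 37.6, 35.6 and 36.7 CPM, and its log2 ratio was -0.08 (-0.15 to -0.01) in CCA and -0.04 (-0.11 to 0.04) in CCANT. Osmr was at 107 CPM in control, 109 CPM in CCA and 117 CPM in CCANT, with a ratio of 0.13 (0.09 to 0.17) in CCANT over control, past counting error and far from 1.5-fold.

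Cntfr, the alpha subunit that binds CNTF, was at 147 CPM in control, 135 CPM in CCA and 103 CPM in CCANT, from 7305 to 14072 UMIs. Its levels fell in that order with no overlap of the intervals. The log2 ratio was -0.13 (-0.16 to -0.09) in CCA and -0.52 (-0.56 to -0.47) in CCANT over control. Within the CCANT library, Cntfr was higher in cells with Xist (115 CPM) than in cells with Y-linked UMIs (88.9 CPM). The latter differed from control by -0.73 (-0.79 to -0.67), past 1.5-fold. Against the CCA library, the CCANT cells with Xist differed by -0.23 (-0.29 to -0.18), under 1.5-fold. Cntf and Cntfr thus moved in opposite directions in CCANT, in all kept cells and in each of these subsets.

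Ednrb, the endothelin receptor, was at 18.2 CPM in control, 20.6 CPM in CCA and 28.2 CPM in CCANT, and the thinned share of cells with a UMI was 6.79%, 6.97% and 10.1%. Its log2 ratio was 0.18 (0.08 to 0.28) in CCA and 0.63 (0.54 to 0.72) in CCANT over control. In the CCANT cells with Y-linked UMIs alone it was 0.47 (0.34 to 0.60), under 1.5-fold.

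**Figure D2:**
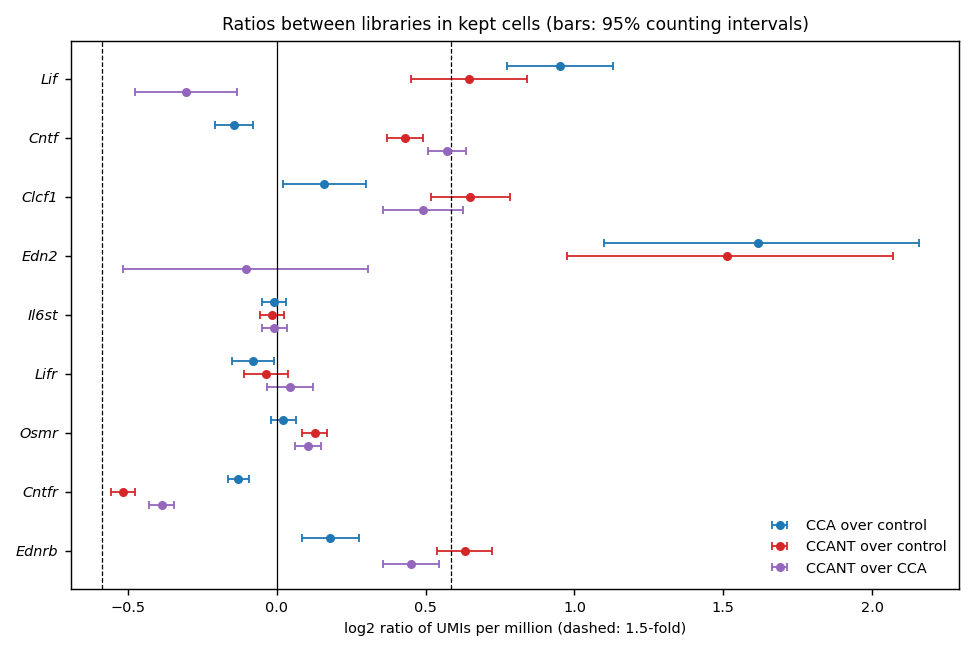
Log2 ratios of levels in CPM (x axis) of the 9 genes (y axis) between the libraries in kept cells; points are ratios, bars exact 95% counting intervals, and dashed lines 1.5-fold in either direction. Lif (0.95) passed the line in CCA over control, and Lif (0.65), Clcf1 (0.65) and Ednrb (0.63) in CCANT over control; Edn2 lay beyond it in both but had under 5 CPM.

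The MG of the libraries lay in different clusters, which were made without the 9 genes, the pathway genes and Gfap. Of the kept cells, 64.0% of control lay in cluster 1 and 30.0% in cluster 4, which was led by the interferon-induced genes Iigp1 and Gbp2. Of CCA, 39.5% lay in cluster 1 and 34.4% in cluster 2, which was led by Ndufa4l2 and the immediate early genes Btg2 and Fos. Of CCANT, 32.9% lay in cluster 1, 37.9% in cluster 2 and 13.4% in cluster 5, which was led by C3, Mecom and A2m. As a description, among clusters 1, 2, 4 and 5 Lif was lowest in cluster 1 (2.74, 3.50 and 3.12 CPM in control, CCA and CCANT), and it was at 14.0, 16.1 and 11.3 CPM in cluster 5. In cluster 2 it was at 35.9 CPM in the 61 control cells, 12.8 CPM in CCA and 5.55 CPM in CCANT; the control cell with most Lif UMIs (27) was among these 61. As ratios, the Lif levels of the libraries lay closer together within clusters 1 and 5 than over all kept cells. In cluster 2 control was the highest. In cluster 4 Lif was at 4.71 CPM in control (140 UMIs, interval 3.96 to 5.56) and 7.08 CPM in CCA (35 UMIs, 4.93 to 9.84). That was the same direction as over all kept cells, with overlapping intervals. The part of the cluster make-up in the Lif differences between libraries was not tested.

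Cntf also differed by cluster. It was at 25.8, 27.6 and 37.5 CPM in cluster 1 and at 172, 99.3 and 108 CPM in cluster 5, so that control was lowest in the former and highest in the latter. In cluster 2 Cntf was at 102 CPM in the 61 control cells, 47.9 CPM in CCA and 64.7 CPM in CCANT. In cluster 4 it was at 68.5 CPM in control and 53.4 CPM in CCA. Ednrb was at 13.7, 13.3 and 19.8 CPM in cluster 1 and at 40, 34.5 and 41.2 CPM in cluster 5. In cluster 2 Ednrb was at 51.9 CPM in control, 26.5 CPM in CCA and 30.3 CPM in CCANT. In cluster 4 it was at 23.2 CPM in control and 15.4 CPM in CCA. Between clusters 1 and 5 Cntfr ran the other way, with 157, 166 and 135 CPM in cluster 1 and 87.3, 100 and 67.6 CPM in cluster 5. The part of the cluster make-up in the differences of Cntf, Ednrb and Cntfr between libraries was not tested. Il6st was nearly level, between 103 and 125 CPM across clusters 1, 2, 4 and 5 in every library with at least 50 cells there. Gfap rose across the same clusters, from 5.24, 24.0 and 30.2 CPM in cluster 1 to 220, 302 and 264 CPM in cluster 5.

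The 260 kept CCA cells in cycling clusters, led by Hells, Pcna, Cenpf and Top2a, had less of most axis genes, and of the MG markers, than the other 3403 MG of that library. As a percent of all kept MG of CCA, the 10 MG markers stood at 40.9% to 80.6% (median 59.3%) in the cycling cells. Lif (51.7%), Lifr (61.2%), Il6st (71.7%), Osmr (52.9%), Cntfr (71.8%) and Clcf1 (59.1%) lay inside that range, and Cntf (26.5%) below it. Cntf was at 10.9 against 43.9 CPM (log2 ratio -2.01, interval -2.37 to -1.66), Lif at 4.18 against 8.43 CPM (-1.01, -1.64 to -0.45) and Osmr at 58 against 114 CPM (-0.97, -1.13 to -0.82). Clcf1, Lifr, Il6st and Cntfr were lower by 0.51 to 0.81, and the part of the general fall of MG transcripts in these ratios was not tested. Ednrb did not differ beyond counting error (0.09, -0.18 to 0.34), and Edn2 was at 2.09 against 0.938 CPM (1.16, 0.18 to 2.03) from 13 UMIs. As a percent of its rod-like level, Edn2 was 4.19% in the cycling cells and 1.88% in the other MG. The 10 rod genes ranged from 1.57% to 4.99% and from 0.772% to 2.10%, and the part of rod RNA was not tested. The cycling cells had Gfap at 15.3 against 79 CPM and Socs3 at 43.7 against 138 CPM. The 75 kept cycling cells of CCANT had Lif at 11.9 CPM (24 UMIs), above the 5.65 CPM of the other MG of that library, and Edn2 at 0.494 against 0.540 CPM from 1 UMI, while Cntf (25.7 against 61.8 CPM) and Osmr (65.2 against 120 CPM) were lower as in CCA. No kept control cell lay in a cycling cluster.

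Outside MG, the cells came from the matrices of the libraries, with or without a tdTomato UMI, and classes were named from markers. There were 3536 rod-like, 667 cone-like, 497 microglia-like and 190 pericyte-like cells. Of these, 39 pericyte-like cells came from CCANT. All 10 rod genes, all 8 cone genes, all 10 microglia genes and all 9 pericyte genes were raised in their class. Rod-like cells had a median of 5029 UMIs in their main cluster, 27.0% of the depth of their samples, and this cluster was named only because Rp1 and Pde6a were among its 10 leading genes of at least 200 CPM. Pericyte-like cells also had Acta2 and Myh11 among their leading genes, and other mural cells may be among them. Free RNA was gauged by the MG markers: in rod-like cells the median of 10 MG markers was 5.55%, 5.64% and 7.27% of its level in MG, in cone-like cells 3.3% to 4.6%, in microglia-like cells 11.9% to 22.9% and in pericyte-like cells 19.5% to 27.2%.

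Edn2 was far higher in rod-like cells than in MG. It was at 28.2 CPM in control (131 UMIs), 49.8 CPM in CCA (367 UMIs) and 38.4 CPM in CCANT (286 UMIs), 66.6-fold, 48.4-fold and 71.4-fold above the MG of the same library. Thinned to 4000 UMIs, 9.78%, 15.7% and 13.0% of rod-like cells had an Edn2 UMI, against 0.133% to 0.695% of kept cells. Rod-like Edn2 was higher in CCA than in control (log2 ratio 0.82, 0.53 to 1.12), higher in CCANT than in control (0.45, 0.15 to 0.76) and lower in CCANT than in CCA (-0.37, -0.60 to -0.15). In cone-like cells Edn2 was at 1.5, 1.95 and 3.22 CPM from 3, 7 and 11 UMIs. That was 5.31%, 3.91% and 8.37% of its rod-like level, beside medians of 3.79%, 4.31% and 7.67% for the 10 rod genes, and is read as background.

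Lifr was also higher in rod-like cells than in MG. It was at 135, 124 and 121 CPM, against 37.5, 34.9 and 34.8 CPM in MG, 3.60-fold, 3.54-fold and 3.49-fold with intervals well above 1. Thinned shares were 39.1%, 37.0% and 35% of rod-like cells, against 13.4% to 14.1% of kept cells. Between libraries the rod-like level of Lifr differed by -0.13 (-0.27 to 0.02) in CCA and by -0.15 (-0.30 to -0.0049) in CCANT over control, the latter just beyond counting error. In cone-like cells Lifr was at 29.9, 30.9 and 35.7 CPM, within counting error of MG in each library. Il6st, its partner, was at 40.2, 50.7 and 50.4 CPM in rod-like cells, 34.1% to 43.2% of the MG level and above every MG marker there. In cone-like cells Il6st was at 28.9 to 31.0 CPM, 24.5%, 24.7% and 26.4% of the MG level. The highest MG marker there reached 25.8%, 31.8% and 34.4%, above Il6st in each library, and the part of free RNA was not tested.

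In rod-like cells Cntf was at 7.05%, 4.60% and 6.43%, Cntfr at 6.99%, 6.94% and 10.2%, Osmr at 4.79%, 4.58% and 4.90% and Ednrb at 4.71%, 5.96% and 6.67% of the MG level, near the median of the MG markers, and these are read as background. Lif had 0, 1 and 5 UMIs in all rod-like cells. Clcf1 had 5, 18 and 20 UMIs, at 11.9%, 24.3% and 18.9% of the MG level, and passed the highest of the MG markers (20.4%) in CCA alone. In cone-like cells Cntf was at 14.5, 9.48 and 12.9 CPM from 29 to 44 UMIs, 21.2% to 31.6% of the MG level, where the highest MG marker reached 25.8%, 31.8% and 34.4%, so that only control passed it; the marker medians were 3.33%, 3.54% and 4.62%. Cone-like Ednrb was at 16.4%, 27.2% and 11.4% of the MG level from 6, 20 and 11 UMIs, above these medians and below the highest marker. The part of free RNA in both was not tested.

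In microglia-like cells Lifr was above its MG level, while Il6st and Clcf1 were near or below theirs. Il6st was at 101, 87.5 and 108 CPM, Lifr at 57.7, 46.6 and 54.4 CPM and Clcf1 at 8.14, 7.72 and 6.80 CPM. Lifr exceeded MG in each library, by 0.62 (0.45 to 0.79), 0.42 (0.18 to 0.64) and 0.65 (0.40 to 0.88) on the log2 scale. Il6st was below MG in control (-0.22, -0.35 to -0.10) and CCA (-0.42, -0.59 to -0.26), and in CCANT its interval held 0 (-0.12, -0.29 to 0.05). Clcf1 did not differ from MG beyond counting error in control (-0.15, -0.63 to 0.30) and CCA (-0.38, -0.99 to 0.17), and was lower in CCANT (-1.06, -1.80 to -0.41). Cntf, Cntfr and Osmr stood at 11.0% to 25.8% of MG, beside the MG marker medians of 11.9% to 22.9%. The highest MG marker reached 114%, 130% and 201% of MG in these cells. That was above Il6st and Clcf1 in each library and above Lifr (156%) in CCANT. A marker above its MG level cannot come from free RNA of MG alone, so it sets no bound here. Il6st stood at 74.5% to 92.1% and Clcf1 at 47.9% to 90.2% of MG, and the part of free RNA in them was not tested. Lif had 3, 8 and 8 UMIs, and 0 UMIs in the control and CCA microglia-like cells without a tdTomato UMI. Ednrb was at 23.3 CPM in CCANT against 3.68 CPM in control and 2.29 CPM in CCA, and fell to 4.30 CPM in CCANT when the cells with the 5% highest doublet scores were left out.

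By level, Osmr and Ednrb were highest in pericyte-like cells among the named classes. Osmr was at 142 CPM in control, 187 CPM in CCA and 167 CPM in CCANT, above MG by 0.40 (0.12 to 0.67), 0.77 (0.60 to 0.94) and 0.50 (0.19 to 0.79). It was higher in CCA than in control by 0.40 (0.08 to 0.72), and the ratios of CCANT to both held 0. Endothelial-like cells were at 105 to 130 CPM of Osmr, not separable from MG, and in control and CCANT their intervals overlapped those of pericyte-like cells. Ednrb was at 78.6, 62.2 and 34.1 CPM from 63, 99 and 19 UMIs, with CCANT over control at -1.21 (-2.03 to -0.45), from 39 cells. In CCANT it could not be told from MG (0.27, -0.46 to 0.92). Lifr was at 132, 97.4 and 127 CPM and Il6st at 105, 138 and 131 CPM. The pericyte Ednrb and Lifr levels stood at 121% to 431% and 279% to 366% of MG. Of Lif, 0, 2 and 5 UMIs were seen, and 0 in the CCA and CCANT pericyte-like cells without a tdTomato UMI. In the 27 cells of CCANT that were B and plasma-like by markers, Lif was at 19.7 CPM (17 UMIs, 11.5 to 31.5). The MG of CCANT were at 5.85 CPM, and B and plasma-like cells of control and CCA had 1 and 0 Lif UMIs.

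Cluster 29, led by Pax2, Pdgfra and S100b, is left unnamed since only 2 of 4 astrocyte markers were raised, and 142 of its 190 cells came from CCANT. Ednrb was higher there than in any named class, at 139 CPM in control, 223 CPM in CCA and 251 CPM in CCANT. Cluster 18, also unnamed and with 8 bipolar markers raised, had Ednrb at 64.1, 82.8 and 48.5 CPM. By level that was below pericyte-like cells in control and above them in CCA and CCANT. In cluster 29 Cntf was at 94.7, 124 and 99.2 CPM, above MG by 1.05, 1.58 and 0.71 on the log2 scale. Lif was at or below 2.38 CPM, from 1 to 6 UMIs. Gfap was at 2343, 3203 and 3196 CPM in control, CCA and CCANT, against 22.7, 73.9 and 94.9 CPM in MG. The cluster held 0 kept cells, so the kept-cell levels of Gfap do not include these cells.

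**Figure D3:**
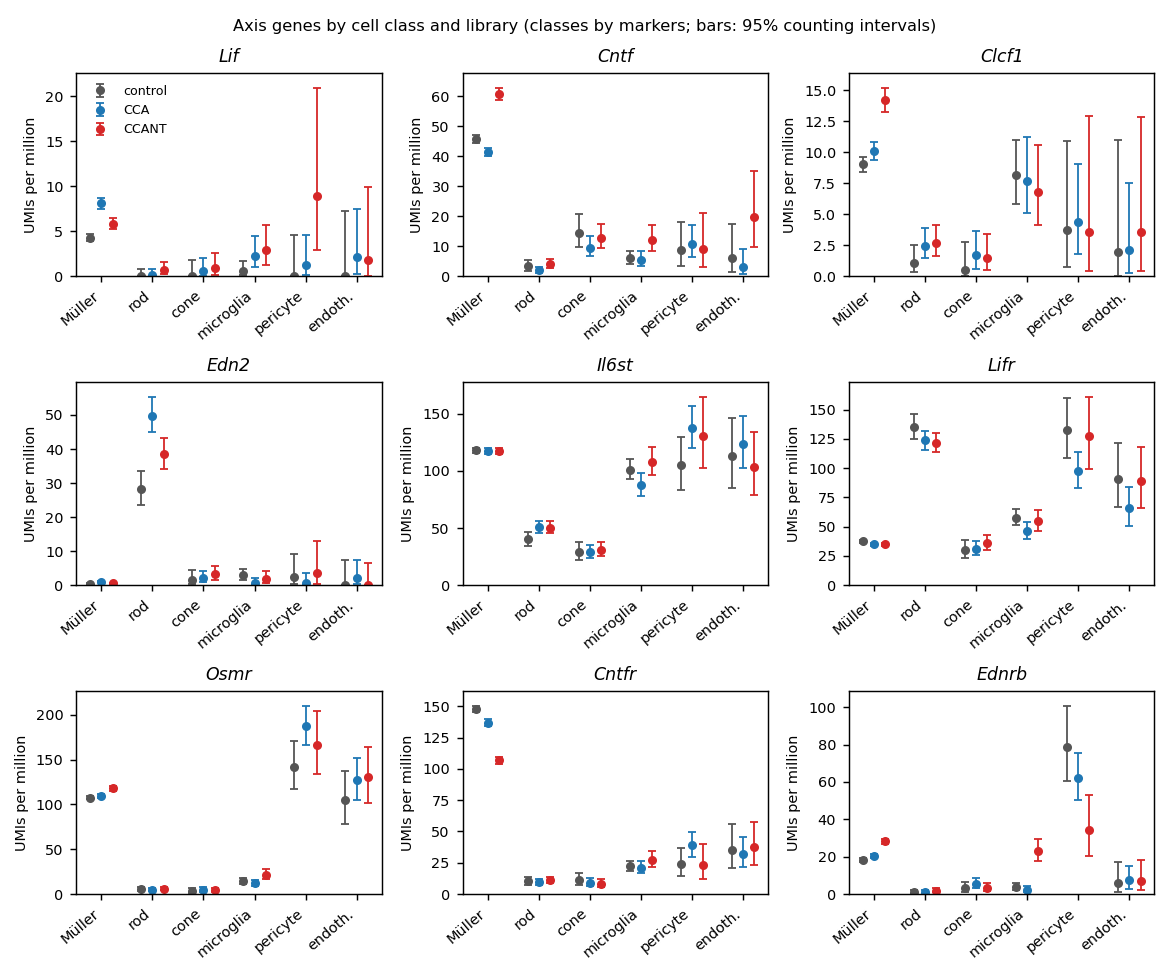
Levels of the 9 genes (y axis, CPM, from 0) in MG, rod-like, cone-like, microglia-like, pericyte-like and endothelial-like cells (x axis), with 1 point per library and exact 95% counting intervals. Edn2 stood at 28.2 to 49.8 CPM in rod-like cells and at most 1.03 CPM in MG. Among the classes shown, Lifr was highest in rod-like and pericyte-like cells. Lif, Cntf and Cntfr were highest in MG among them, with the exception of Lif in CCANT pericyte-like cells (5 UMIs).

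The link to Gfap over cells was read in each library apart, by sorting the kept cells on their Gfap UMIs after thinning to 4000 UMIs. The lowest class, with 0 Gfap UMIs, held 3563 control, 3376 CCA and 2647 CCANT cells, and the highest, with 2 or more, held 61, 224 and 252 cells. Between cells with 2 or more Gfap UMIs and cells with 0, Lif and Cntf were higher by over 1.5-fold in all 3 libraries, Osmr and Ednrb in control and CCA, and Cntfr was lower by over 1.5-fold in control. The Cntfr call did not hold in a second random draw of the thinning, chosen after seeing the data (log2 ratio -0.42). By the same 1.5-fold rule, 4 of 8 members were higher and 1 lower in control, against 6.95% and 7.02% of all genes. In CCA 4 of 8 were higher and 0 lower, against 3.57% and 4.98%, and in CCANT 3 of 8 were higher and 0 lower, against 3.34% and 3.52%. The higher genes were Lif, Osmr, Cntf and Ednrb in control and CCA, and Lif, Cntf and Clcf1 in CCANT; the lower gene was Cntfr in control. The median log2 ratio of the members was 0.70, 0.59 and 0.41, beside -0.04, -0.04 and -0.02 for all genes.

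Lif was at 3.58 CPM in control cells with 0, 6.65 CPM with 1 and 37.8 CPM with 2 or more Gfap UMIs, a log2 ratio of 3.40 (2.99 to 3.79) between the ends. In CCA it was at 7.42, 13.1 and 14.5 CPM (0.97, 0.59 to 1.32), and in CCANT at 5.48, 7.21 and 18 CPM (1.72, 1.38 to 2.04). Without the CCANT cell that held 52 Lif UMIs, and 44 of Gfap, the highest class in CCANT was at 9.16 CPM, a ratio of 0.74 (0.29 to 1.16), and in MG outside the mixed and cycling clusters it was 0.72. Cntf rose step by step in each library, from 43.2 through 80.6 to 120 CPM in control, from 38.1 through 61.1 to 66.3 CPM in CCA and from 57.1 through 76.3 to 87.7 CPM in CCANT. Osmr rose from 105 to 180 CPM in control and from 103 to 165 CPM in CCA, and was at 113 and 149 CPM in CCANT, under 1.5-fold.

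Ednrb was at 17.3 and 45.6 CPM in the lowest and highest class of control, 18.9 and 40.3 CPM in CCA and 27.2 and 36.4 CPM in CCANT. Cntfr was at 149 and 90.7 CPM in control, 138 and 111 CPM in CCA and 107 and 78 CPM in CCANT, log2 ratios of -0.72, -0.30 and -0.46. Il6st moved little, with ratios of 0.00 (-0.21 to 0.21), 0.16 (0.04 to 0.27) and 0.15 (0.04 to 0.26). Lifr had a ratio below 0 beyond counting error in CCA alone, at -0.58 (-0.85 to -0.31). The rod genes moved too, at 322 and 417 CPM in control, 871 and 1032 CPM in CCA and 1483 and 2336 CPM in CCANT, and their part in these ratios was not tested. Without thinning, of the control cells with any Gfap UMI 51.2% lay in cluster 4 and 13.9% in cluster 5, against 26.0% and 1.23% of those with none.

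Cell by cell the link was weak. Over kept cells thinned to 4000 UMIs, Spearman's rho with Gfap was 0.06, 0.04 and 0.01 for Lif, 0.11, 0.07 and 0.05 for Cntf, 0.02, 0.05 and 0.07 for Osmr and 0.06, 0.06 and 0.03 for Ednrb in control (3758 cells), CCA (3887 cells) and CCANT (3277 cells). In the same order rho was 0.01, 0.02 and -0.03 for Clcf1, -0.02, -0.05 and -0.04 for Cntfr and -0.02, -0.01 and -0.02 for Lifr. For Il6st it was 0.01, -0.01 and 0.03, and for Edn2 -0.01, -0.01 and 0.03. These cells share a library and most had 0 UMIs of either gene, so the values describe the cells only. For comparison Socs3 gave 0.15, 0.10 and 0.13.

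Within a single MG cluster, cells with 1 or more Gfap UMIs were compared with cells with 0 in the 7 cluster and library pairs that held at least 50 of each, a split added after the values above had been seen. It differs from the split at 2 or more UMIs in both respects, so the sizes of the ratios are not comparable with those above. Osmr was higher in cluster 2 of CCA and CCANT, cluster 4 of control and cluster 5 of CCA and CCANT, by 0.39, 0.19, 0.29, 0.55 and 0.27 on the log2 scale, and not in cluster 1. Cntf was higher by 0.61 (0.27 to 0.94) in cluster 1 of CCA, by 0.28 (0.08 to 0.48) and 0.22 (0.05 to 0.39) in cluster 2 of CCA and CCANT and by 0.37 (0.16 to 0.58) in cluster 4 of control. In cluster 1 of CCANT and in cluster 5 of CCA and CCANT its ratio was -0.03, -0.06 and 0.10, within counting error. Lif was higher by 1.84 (1.25 to 2.41) in cluster 4 of control, by 0.41 (0.02 to 0.79) in cluster 2 of CCA and by 0.58 (0.02 to 1.13) in cluster 5 of CCA, and lower by a log2 ratio of -1.04 (-1.70 to -0.42) in cluster 5 of CCANT. In the other 3 pairs it was 0.56 (-0.55 to 1.49) in cluster 1 of CCA, -1.26 (-3.58 to 0.35) in cluster 1 of CCANT and 0.52 (-0.07 to 1.07) in cluster 2 of CCANT. Clcf1 was higher in cluster 5 of CCA and CCANT, by 1.33 (0.62 to 2.07) and 0.46 (0.02 to 0.90), and Ednrb in clusters 2 and 5 of CCA, by 0.43 (0.16 to 0.69) and 0.57 (0.20 to 0.94). Neither passed counting error in the other 5 pairs. Il6st was higher in cluster 2 of CCANT alone (0.16, 0.03 to 0.29). Lifr was lower in cluster 2 of CCA (-0.33, -0.61 to -0.06), and Cntfr in cluster 2 of CCANT (-0.16, -0.31 to -0.01) and cluster 4 of control (-0.17, -0.35 to -0.01). In the other 5 pairs Cntfr was at -0.19 to 0.20, within counting error.

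**Figure D4:**
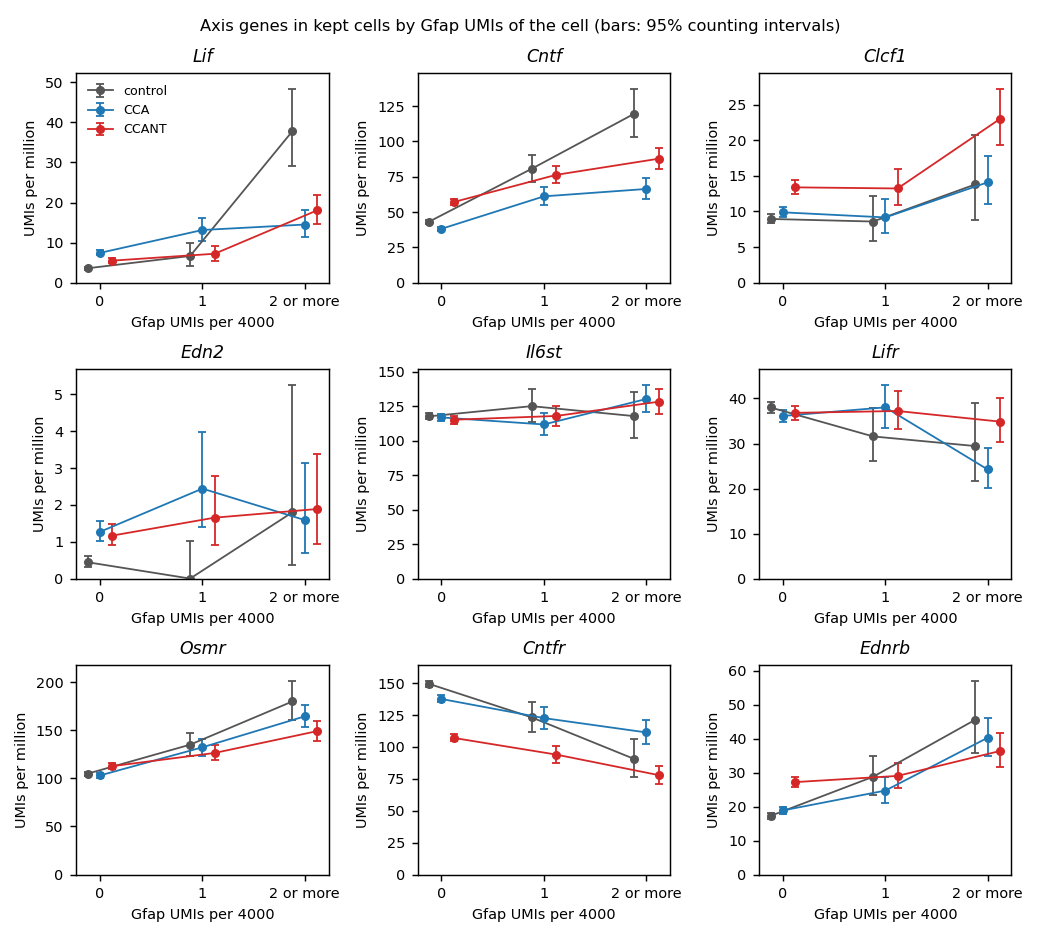
Levels of the 9 genes (y axis, CPM, from 0) in kept cells with 0, 1, and 2 or more Gfap UMIs after thinning to 4000 UMIs per cell (x axis), 1 line per library, with exact 95% counting intervals. Lif in control rose from 3.58 to 37.8 CPM and Cntf from 43.2 to 120 CPM, Cntfr in control fell from 149 to 90.7 CPM, and Il6st stayed between 112 and 130 CPM.

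The other genes of the pathway were taken as a list of 40, of which 29 passed the minimum level. In CCA over control 9 were higher and in CCANT over control 8, where 5.78% and 5.84% of all genes tested were higher. The median log2 ratio of the 29 was 0.06 and 0.10. Of the 11 genes known as STAT3 targets in glia, 8 were higher in CCA and 1 lower, where 5.78% and 1.31% of all genes tested were so. In CCANT 7 were higher and 0 lower, against 5.84% and 2.99% of all genes. The medians of the 11 were 0.92 and 0.94, beside 0.05 and 0.02 for all genes. The list was chosen with earlier results of these data known, so these shares are a description only. STAT3 activity itself was not measured. Gfap was at 22.8, 75.9 and 101 CPM (log2 ratios over control 1.73 and 2.15), the acute phase inhibitor Serpina3n at 12.1, 25.5 and 34.9 CPM, the metalloprotease inhibitor Timp1 at 8.89, 16.8 and 29 CPM and the AP-1 gene Junb at 387, 873 and 900 CPM. Cebpb, Pim1 and Bcl3 were higher in both, and Cebpd in CCA (358 to 598 CPM). Lcn2, which binds siderophores, was the gene lower in CCA, at 131, 62.4 and 91.5 CPM.

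For the counts of this paragraph, 5.78% of all genes tested were higher and 1.31% lower in CCA than in control. In CCANT over control the shares were 5.84% and 2.99%. Among 5 feedback genes tested, 1 was higher in both. Socs3 stood at 37.7 CPM in control, 139 CPM in CCA and 137 CPM in CCANT, log2 ratios of 1.89 (1.83 to 1.94) and 1.86 (1.80 to 1.91). The CCANT cells with Y-linked UMIs alone had 140 CPM of Socs3. Of 8 kinases and transducers, 0 were higher. Stat3 was at 145, 167 and 162 CPM and the kinase gene Jak1 at 107, 112 and 110 CPM. Of the other gp130 cytokines, Il6 had at most 0.024 CPM and Osm at most 0.036 CPM in kept cells, and 0 of the 3 that passed the minimum differed. Il6ra was at 1.27, 2.85 and 4.52 CPM and Edn1 at 1.02, 2.35 and 2.73 CPM, both under the minimum.

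The genes whose levels ran most like each member were sought over 62 pools of a class and a library with at least 50 cells, among 17763 genes, by Pearson's r of log2(CPM + 1). These pools share libraries and classes, and the values are descriptions. Edn2 was closest to the rod phototransduction genes Pde6a (0.92), Nr2e3 (0.91), a rod transcription factor, and Pde6b (0.91). Osmr was closest to Rftn2 (0.97), Gpx8 (0.97) and S1pr3 (0.96), Il6st to Ifitm3 (0.92), Tnfrsf1a (0.92) and Alpk1 (0.92), and Cntf to Hopx (0.91), Clu (0.90) and Slc27a1 (0.90). Lif was closest to Myb (0.86), the immediate early gene Ier2 (0.85) and 1700019L13Rik (0.83), Cntfr to Enho (0.87), Reck (0.84) and Gm13483 (0.79), and Clcf1 to Gsap (0.84), Pdlim4 (0.84) and Tsc22d4 (0.83). Lifr was closest to Tnip2 (0.80), Gm16201 (0.79) and Cyp4v3 (0.77), and Ednrb to Stard13 (0.80), Ddit4l (0.78) and Cxcl12 (0.74).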

How the data were processed

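Sorted tdTomato+ cells of 3 pooled retina samples, 1 library per group, were profiled with 10x Genomics 3′ v3.1 chemistry. Per the submitters' notes and methods, the authors used Cell Ranger 6.1.1 on mm10 with tdTomato and GFP added, counting intronic reads. The deposited values are UMI counts, as 1 matrix per library and 1 joint table of the cells that the authors kept after filters on features, UMIs, mitochondrial share, tdTomato, doublets and other cell types.

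The 10926 joint-table cells were tied to a library by the library name in the cell name, which is also in the sample title, and matched by barcode to the library matrices, whose counts were used here. The joint table held a median of 93.1% to 99.9% of their UMIs. Other classes came from every barcode that reached 2000 features and passed neither 100000 UMIs nor a mitochondrial share of 15%. Cells were clustered with leidenalg 0.10.2 (2000 variable genes, 20 components, 20 neighbours, Leiden resolution 0.5). The 9 genes, the pathway list, Gfap, sex-linked genes and transgenes were left out. A cluster other than a cycling one was named where at least 3 markers were raised and their median was 4-fold over the median cluster. Outside MG, a marker was also among its 10 leading genes of at least 200 CPM, a minimum set after the clusters were seen. Mixed MG and rod clusters 7 and 8 had median log2 levels of 2.54 to 2.76 for both sets of markers. In cycling MG clusters 14 and 20 the cycling markers had medians of 5.09 and 6.45. Their MG markers had medians of 2.29 and 1.2, so cluster 20 was under 4-fold for MG. Cluster 20 held 112 of the 260 kept CCA cells in cycling clusters. Doublets were left in for these classes. Scrublet was run in Scanpy 1.11.5, and its own threshold marked no cell in control and CCANT and was not used.

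Levels are summed UMIs scaled to 1000000 (CPM), with exact Poisson intervals at 95%. Ratios have the exact interval of a ratio of Poisson counts, and shares Clopper-Pearson intervals after thinning to 4000 UMIs. For a count of 0 the limit printed is 3 counts, a one-sided limit, and the exact intervals drawn in the plots, which cover both sides, reach higher. UMIs of a cell and cells of a library are not independent samples of a group, so all intervals cover counting error only and no test between groups was possible. The call was also run on simulated counts. These were drawn as Poisson counts around the control levels, without spread between cells or retinas. They therefore cannot show how the call behaves on counts concentrated in few cells, such as those of Lif. Kept cells held 95458516, 83266870 and 70825549 UMIs in control, CCA and CCANT. Cells were sexed at 3 or more UMIs of 1 kind and at most 1 of the other. The 9 members, the pathway list, the markers and the rule for named genes (the members, the listed genes past 1.5-fold with Stat3, Socs3, Jak1 and Gfap, and the 3 genes most alike to each member) were chosen with earlier results of these data known. Genes named beyond this rule, such as Il6, Osm, Il6ra, Edn1 and Zfp91, were named after their values were seen. Some genes of the pathway list are not reported here, and for the whole list and its kinases only counts of higher genes are given.

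The labels give tamoxifen from P20 at 75 mg/kg and a LacZ hairpin in the control virus, which the methods state differently, and the labels were followed. Promoter windows came from RefSeq and gene positions from GENCODE vM21, both on GRCm38. The alternatives were a 2-fold rule, no minimum level, other scalings and cell sets, cells of 1 sex, other thinning depths and another clustering resolution.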

Additional observations from a re-analysis of the deposited data

Results flagged for a closer look

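In 3 cases a gene moved one way between 2 libraries in 1 cell class and the other way in another class; with 1 library per group the difference between the classes was not tested. Edn2 in CCA over control was higher in MG (log2 ratio 1.28, 81 against 40 UMIs) and in rod-like cells (0.82, 367 against 131 UMIs), and lower in microglia-like cells (-2.35, 2 against 15 UMIs). In control the microglia-like level of Edn2 was 10.3% of the rod-like level, where the 10 rod genes ranged from 1.45% to 2.28%, and in CCA it was 1.15%, where they ranged from 2.88% to 5.76%. Ednrb in CCANT over control was higher in MG (0.63) and in microglia-like cells (2.66, 65 against 19 UMIs), and lower in pericyte-like cells (-1.21, 19 against 63 UMIs). Ednrb in CCANT over CCA was higher in microglia-like cells (3.35) and lower in pericyte-like cells (-0.87). Ednrb in the CCANT microglia-like cells was 4.30 CPM without the 5% highest doublet scores, against 23.3 CPM with them, and their MG marker median was 22.9% of MG, the highest of the 3 libraries.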

How the results depend on the processing

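The count of members past 1.5-fold in CCA over control was 1, and 0 at 2-fold and 2 (Lif and Edn2) with no minimum level. In CCANT over control it was 3, and 0 at 2-fold and 4 (with Edn2) with no minimum level. In CCANT over CCA it was 0, and 1 (Cntf) with median-of-ratios size factors, with the mean of per-cell CPM and with CCANT cells carrying Xist. In CCANT over control 2 members remained, Clcf1 and Ednrb, with the mean of per-cell CPM, with MG clusters alone and with at least 2 tdTomato UMIs per cell (Lif then 0.25); with CCANT cells carrying Y-linked UMIs the 2 were Clcf1 and Cntfr. Lif was the member called in CCA over control under every alternative but the 2-fold rule. No ratio of a member between libraries that differed beyond counting error changed sign. Of 207 recomputed ratios 29 left the interval of the reported value, as did 34 class levels, with 290 inside theirs (18 in cells with no tdTomato UMI and 16 without the 5% highest Scrublet scores). Of 81 recomputed ratios by Gfap 10 left their interval: 5 at 8000 UMIs, among them Lif in control (2.73), 2 in MG outside cycling clusters, and 3 in a second draw of the thinning, which were Lif in CCA (1.37), Cntfr in control (-0.42, then under 1.5-fold) and Ednrb in CCANT (0.20). All 54 shares rose with depth. The Scrublet threshold marked 0% of cells in 2 libraries, so leaving out its doublets was not run, and the 5% highest scores, chosen after seeing the data, were left out instead. The second draw, the clusters taken apart and the removal of the cell with most Lif UMIs were likewise chosen after seeing the data. No paired analysis was possible because each group had 1 library. Depth limits Edn2 in kept cells (43 to 115 UMIs) and Lif outside MG.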
